A study of Mus musculus with 8 samples.

Results

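NF-kB transcription factor subunits and the proteins that hold them in check were followed as a set of 10 genes out of 14042 in the deposited tables. The set holds the subunits Nfkb1, Nfkb2, Rel and Relb, the inhibitors Nfkbia, Nfkbid, Nfkbiz, Nfkbie and Bcl3, which carry ankyrin repeats, and Tnfaip3, which encodes the ubiquitin-editing enzyme A20. All 10 symbols were found in every table and no value was filtered out. The genes were chosen by symbol after earlier results of these data were known, in which Tnfaip3 differed between libraries labelled T follicular helper (TFH) and libraries labelled naive. Differences between those labels are therefore given for the 10 genes as a description with no test.

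The 8 mouse RNA sequencing libraries form 4 groups of 2. Naive WT and naive KO are CD4 T cells sorted as naive, with low CD44, of genotype WT or C5aR1-/-, which lacks the receptor for the complement fragment C5a; their tissue is not given in the sources used here. TFH WT and TFH KO are CXCR5+ PD1hi CD4 cells of donor origin, recovered from the spleens of (bxd)F1 hosts 7 days after these received CD8-depleted splenocytes of either genotype. Transfer, the F1 host, the sort and the label cannot be told apart, since no transferred cell was sorted as naive and no untransferred cell as TFH.

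In resting T cells, dimers of NF-kB subunits are kept in the cytoplasm by inhibitors of the IkB family. Signals from the T cell receptor and from receptors of the tumour necrosis factor family activate the IkB kinase, the inhibitor is degraded, and the dimer enters the nucleus. Among the genes it switches on are those of its own inhibitors and of A20, so that the pathway limits itself. In germinal centre responses NF-kB signalling in T cells lies downstream of the antigen receptor and of costimulation.

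The NF-kB binding motif was counted in the promoters of these genes, with no test. RefSeq windows on GRCm38.p6, from 250 bases before to 50 bases after an annotated start, were at hand for 7 of the 10 genes; Nfkbiz, Nfkb1 and Relb had no entry. Each of the 7 had at least 1 window with the kB consensus on either strand, against 9.55% of 27025 genes. Of their 12 windows 9 held it, against 8.46% of 32851 windows. The set was chosen as NF-kB subunits and feedback inhibitors, so nothing is read from these shares. A broader form, GGGNNNNNCC on either strand, which overlaps the consensus, was present in all 7 and in 53.5% of all genes. A match describes letters and was not tested as a binding site. The stretches below are shown because they hold these matches in the genes with large label differences (Tnfaip3, Nfkbia, Rel, Nfkbid) and in those with small ones (Nfkb2, Nfkbie). Each is written 5′ to 3′ on the strand of the gene, ends before the annotated start, and has every match to the kB consensus in capitals.
Tnfaip3, chr10:19015411-19015547, minus strand: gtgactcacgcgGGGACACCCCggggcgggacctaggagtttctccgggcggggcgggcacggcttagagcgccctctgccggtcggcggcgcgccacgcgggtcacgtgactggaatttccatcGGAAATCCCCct
Nfkbia, chr12:55492648-55492747, minus strand: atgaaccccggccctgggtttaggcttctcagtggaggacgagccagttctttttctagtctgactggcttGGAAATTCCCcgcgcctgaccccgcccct
Rel, chr11:23770971-23771119, minus strand: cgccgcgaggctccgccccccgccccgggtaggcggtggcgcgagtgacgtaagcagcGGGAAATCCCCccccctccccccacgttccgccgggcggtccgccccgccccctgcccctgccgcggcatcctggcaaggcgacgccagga
Nfkbid, chr7:30422166-30422245, plus strand, before its second annotated start: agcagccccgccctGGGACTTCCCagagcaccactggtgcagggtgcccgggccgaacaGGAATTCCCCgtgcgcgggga
Nfkb2, chr19:46304693-46304722, plus strand: gtcacGGGAATTCCCCccctcggggggccg
Nfkbie, chr17:45555550-45555699, plus strand: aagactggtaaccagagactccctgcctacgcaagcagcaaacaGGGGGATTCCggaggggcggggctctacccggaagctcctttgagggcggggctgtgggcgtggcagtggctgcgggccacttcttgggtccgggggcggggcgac

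Tnfaip3 held matches 125 and 12 bases before its start, Nfkbia 29 bases before, and Rel a pair of overlapping matches 92 and 91 bases before. Nfkbie, whose level differed little between the labels, held a match 106 bases before its start, and Bcl3 held one just after its start, outside the stretches shown. Since all 7 genes with a promoter entry held a match, its presence could not separate large differences from small ones. Nfkbiz, Nfkb1 and Relb could not be looked at. Among other lists used below, a match was held by 11 of 33 target genes with a promoter entry, 6 of 20 negative regulators, 5 of 22 receptors, 4 of 29 adaptors and kinases, 1 of 10 ligands and none of 10 other family members and cofactors. In the list of immediate early and heat shock genes 6 of 20 held one.

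Values below are the deposited log2 expression levels. Their distributions were nearly identical between libraries, as quantile normalization leaves them, so a value largely follows the rank of a gene within its library; the step itself has no stated source. Depth is unknown, and whether values were divided by gene length is not given in the sources used here, so levels were not compared between genes. Cd4 lay between 15.48 and 15.69 and Cd3e between 13.75 and 13.99 in all libraries. Of 12 CD4 T cell genes limma called 1 higher and 2 lower in WT, and 0 higher and 4 lower in KO. These are 25% and 33.3%, beside 26.3% and 19.5% of all genes. Thy1 (-0.99 ± 0.14 in WT and -0.87 ± 0.14 in KO) and Cd5 (-0.76 ± 0.12 and -0.54 ± 0.12) were lower under the TFH label. Il21, the TFH cytokine gene, was 9.58 to 10.40 in TFH-labelled and 7.31 to 8.19 in naive-labelled libraries, and Pdcd1, the gene of the PD1 used in sorting, stood at 11.88 to 12.85 and 10.80 to 11.97, overlapping slightly. Cxcr5, the other TFH sort marker, went against the label at 10.85 to 11.56 and 11.56 to 12.45. Of 12 TFH genes limma called 7 higher in WT, 5 higher in KO and none lower. Of 10 naive T cell genes it called 1 higher and 5 lower in WT, and 1 higher and 1 lower in KO. These are 60% and 20%, so the KO count is near the share of all genes. Il7r was lower under the TFH label (-1.59 ± 0.15 in WT and -0.98 ± 0.15 in KO). Klf2 went against the label and was higher (0.52 ± 0.11 in both). Cd44, low at the surface of the naive sort, was 11.97 to 12.11 in TFH-labelled and 12.53 to 13.04 in naive-labelled libraries. Its transcript thus went against the label, as that of Cxcr5 did. C5ar1 itself was not analysed here.

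Tnfaip3, encoding the enzyme that removes activating ubiquitin chains upstream of the IkB kinase (chr10:19000910-19015657), had the widest separation of the set. It stood at 12.56 and 12.41 in naive WT, 12.33 and 12.54 in naive KO, 17.60 and 17.76 in TFH WT, and 17.76 and 17.84 in TFH KO. All 4 TFH-labelled libraries lay at least 5.04 above every naive-labelled library, and the spread within each group was far smaller. By rank of the deposited value it moved from between 1766 and 2144 in naive-labelled libraries to between 3 and 6 of 14042 in TFH-labelled libraries. The rank follows this gene across libraries. With scaling by gene length unknown, it does not give the abundance of Tnfaip3 beside other genes. The difference of means was 5.19 ± 0.11 in WT and 5.37 ± 0.11 in KO (moderated SE, n = 2 libraries per group), a ratio of 36.6 and 41.4 on the linear scale.

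Nfkbia, encoding the classical inhibitor IkB alpha that is degraded and remade with each round of signalling (chr12:55489410-55492647), stood at 13.78 and 13.68 in naive WT and at 13.38 and 13.68 in naive KO. It was 16.21 and 16.44 in TFH WT and 16.23 and 16.44 in TFH KO. The label groups were 2.42 apart at their nearest libraries, and the genotypes nearly coincided within TFH. The difference was 2.59 ± 0.13 in WT and 2.80 ± 0.13 in KO, or 6.03 and 6.99 on the linear scale.

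Nfkbiz and Nfkbid encode nuclear inhibitors, IkB zeta and IkB NS, which act on DNA-bound subunits and can also promote transcription of selected genes. Nfkbiz (chr16:55811375-55838899) was 11.41 and 11.67 in naive WT, 11.36 and 11.34 in naive KO, 14.16 and 14.55 in TFH WT, and 14.27 and 14.57 in TFH KO. Its TFH-labelled libraries were all above its naive-labelled ones, by 2.81 ± 0.15 in WT and 3.07 ± 0.15 in KO. Nfkbid (chr7:30421732-30428746) was 11.62 and 11.88 in naive WT, 11.53 and 11.74 in naive KO, 12.50 and 12.72 in TFH WT, and 12.56 and 12.93 in TFH KO. The groups again did not overlap, but the difference was smaller, at 0.86 ± 0.15 in WT and 1.10 ± 0.15 in KO.

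Bcl3, the third nuclear member, which binds homodimers of the Nfkb1 and Nfkb2 products (chr7:19808462-19822770), was less clearly separated. It was 11.20 and 10.77 in naive WT, 10.66 and 11.26 in naive KO, 11.51 and 11.29 in TFH WT, and 11.33 and 11.49 in TFH KO. The lowest TFH-labelled library lay only 0.03 above the highest naive-labelled one. The difference was 0.42 ± 0.22 in WT and 0.45 ± 0.22 in KO.

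Nfkbie, encoding the classical inhibitor IkB epsilon (chr17:45555703-45563169), was the exception in the set. It was 10.28 and 10.10 in naive WT, 10.28 and 10.43 in naive KO, 10.29 and 10.51 in TFH WT, and 10.14 and 10.61 in TFH KO. The label groups overlapped, and TFH KO held both its lowest and its highest TFH-labelled value. The difference was 0.21 ± 0.16 in WT and 0.02 ± 0.16 in KO, and the latter ran from -0.21 without TFH KO replicate 2 to 0.26 without TFH KO replicate 1. It was -0.06 or 0.10 when naive KO replicate 1 or 2 was left out.

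**Figure D1:**
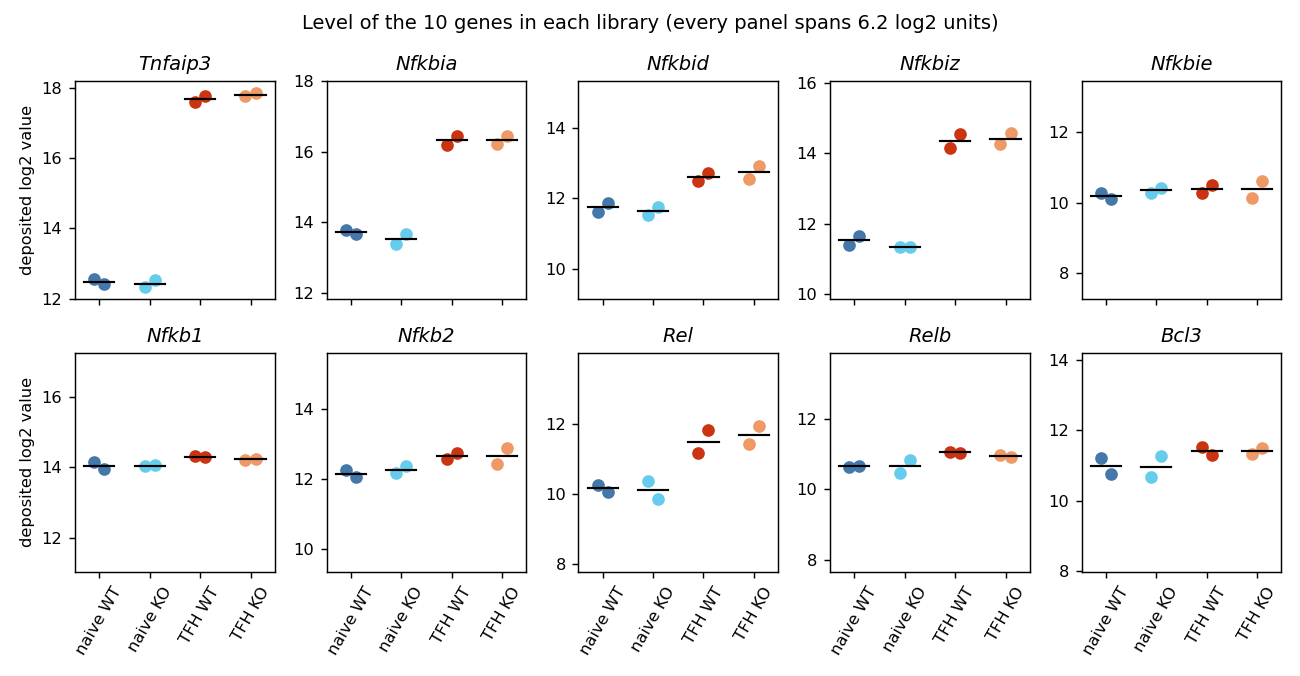
Deposited log2 value (vertical axis) of each gene in the 8 libraries, with 1 point per library, a bar at the mean of the 2 libraries of a group, and the same span of log2 units in every panel. Tnfaip3, Nfkbia and Nfkbiz are separated by label by more than 2 log2 units, Nfkbie overlaps, and WT and KO libraries of a label lie close together.

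Of the subunit genes, Rel differed most. Rel, encoding c-Rel, the subunit needed for full T cell activation (chr11:23736847-23770970), was 10.27 and 10.05 in naive WT, 10.35 and 9.87 in naive KO, 11.17 and 11.80 in TFH WT, and 11.42 and 11.92 in TFH KO. The nearest libraries of the labels were 0.82 apart, although the TFH-labelled libraries of a group differed from each other by 0.63 in WT and 0.51 in KO. The difference of means was 1.33 ± 0.29 in WT and 1.56 ± 0.29 in KO, or 2.51 and 2.95 on the linear scale.

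The genes of the remaining subunits stood apart by less. Nfkb1, whose product is processed to the DNA-binding subunit p50 (chr3:135584655-135691547), ran from 13.95 to 14.14 in naive-labelled and from 14.22 to 14.32 in TFH-labelled libraries, a difference of 0.25 ± 0.10 in WT and 0.18 ± 0.10 in KO. Nfkb2, the precursor gene of the alternative pathway (chr19:46304320-46312385), ran from 12.05 to 12.36 and from 12.41 to 12.89, a difference of 0.50 ± 0.16 and 0.39 ± 0.16. Relb, the partner of the Nfkb2 product (chr7:19606217-19629438), ran from 10.47 to 10.84 and from 10.93 to 11.06, a difference of 0.40 ± 0.13 and 0.30 ± 0.13. In each of these genes the labels did not overlap, with gaps between nearest libraries of 0.06 to 0.09. Without TFH KO replicate 2 the KO difference of Nfkb2 was 0.15 and without TFH KO replicate 1 it was 0.63, and without naive KO replicate 1 that of Relb was 0.11 and that of Bcl3 was 0.15. Without naive KO replicate 2 those of Relb and Bcl3 were 0.49 and 0.75. Without naive WT replicate 2 the WT difference of Nfkb1 was 0.16, and that of Bcl3 was 0.20; without naive WT replicate 1 that of Bcl3 was 0.64.

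All 4 TFH-labelled libraries lay above all 4 naive-labelled libraries in 9 of the 10 genes, where 18.2% of all genes showed the same. Since this contrast was in view when the genes were chosen, nothing is read from that count. The median difference of the 10 genes was 0.68 in WT and 0.78 in KO, beside medians of 0.01 and -0.01 over all genes. The order of size was the same at the top in both genotypes, with Tnfaip3 first, then Nfkbiz, Nfkbia, Rel and Nfkbid. Centring on housekeeping genes shifted the median of all genes by 0.20 in the KO comparison and 0.07 in WT, and with it the Tnfaip3 differences became 5.58 and 5.26. The small KO differences moved more, to 0.40 for Nfkb1, 0.51 for Relb, 0.60 for Nfkb2, 0.66 for Bcl3 and 0.24 for Nfkbie. The 12 housekeeping genes themselves differed between labels. Limma called 3 higher and 3 lower in WT, and 0 higher and 4 lower in KO. These are 50% and 33.3%, beside 26.3% and 19.5% of all genes. Actb differed by -1.43 ± 0.12 in both genotypes, and Gapdh by 0.73 ± 0.15 in WT. Centred values depend on these genes.

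**Figure D2:**
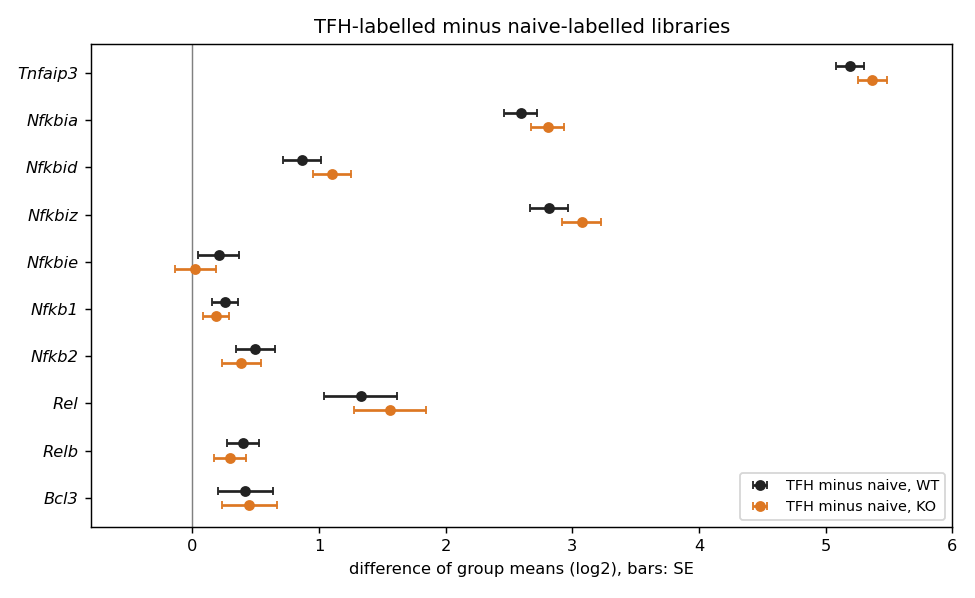
Difference between TFH-labelled and naive-labelled group means (horizontal axis, log2) for each gene in WT (black) and KO (orange), with bars of 1 moderated SE, shown as a description. The inhibitor genes Tnfaip3, Nfkbiz and Nfkbia lie farthest right, at 2.59 to 5.37, and the subunit genes other than Rel lie at 0.50 or less.

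Group means were ordered alike in Tnfaip3, Nfkbia, Nfkbid, Nfkbiz and Rel: naive KO lowest, then naive WT, TFH WT and TFH KO. Within each label the neighbouring genotypes did not differ beyond their spread by the tests given below, so the order holds only between labels. For Nfkb1 and Relb TFH WT was highest and TFH KO next, at 14.30 and 14.23 for Nfkb1 and 11.04 and 10.95 for Relb. For Nfkbie the order was naive WT, naive KO, TFH KO and TFH WT, from 10.19 to 10.40, and no neighbours were apart by more than their spread. For Nfkb2 and Bcl3 the means of TFH WT and TFH KO were 12.65 and 12.65, and 11.40 and 11.41.

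Profiles over the 8 libraries separated the set in the same way. As a description over libraries that fall into label clusters, Pearson's r with Tnfaip3 was 0.997 for Nfkbia, 0.995 for Nfkbiz, 0.961 for Nfkbid and 0.947 for Rel. It was 0.895 for Nfkb1, 0.871 for Relb, 0.836 for Nfkb2, 0.752 for Bcl3 and 0.368 for Nfkbie. Nfkbie was closest to Nfkb2, with r = 0.812. Among 7009 other genes above the median level, the profiles most like that of Tnfaip3 were those of Siah2, Fbxo33, Rgs2, Cd69 and Pim1, each with r of at least 0.998. A high r was common, since 349 of these genes passed 0.95 with Tnfaip3. Most like Nfkb1 were Slc29a1, Hif1a, Lag3, Ptpn11 and Spata13, with r from 0.979 to 0.993, and 55 genes passed 0.95.

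Markers of other cells and states moved beside these genes. Immediate early and heat shock genes are induced rapidly by stimulation and by handling. Limma called 20 of 24 such genes higher in TFH-labelled libraries of WT and 19 of KO, and none lower, at an adjusted p below 0.05 over all genes. These are 83.3% and 79.2%, beside 12.6% and 9.12% of all genes called higher. Dusp1, a phosphatase of MAP kinases, rose by 3.14 ± 0.11 in WT and 2.97 ± 0.11 in KO, and the receptor-induced factor Nr4a1 by 2.45 ± 0.10 and 2.66 ± 0.10. Not every gene of that list was higher, with 21 of 24 differences positive in WT and 23 in KO. The heat shock gene Hspa1b was 9.99 and 13.81 in naive WT and 9.72 and 10.17 in TFH WT. It was 5.88 and 4.85 in naive KO and 5.85 and 6.30 in TFH KO. The mean of that list spanned 12.70 to 13.22 under the TFH label and 10.99 to 11.71 under the naive label, and its summed level was 19.14 to 19.20 and 17.66 to 17.86 in log2. The part of this response in the NF-kB differences was not tested.

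Replicate 2 of both TFH groups had more transcript of B cell genes. The mean of 20 B cell genes was 7.98 and 10.15 in TFH WT, 7.84 and 11.59 in TFH KO, and 8.99 to 10.28 in naive-labelled libraries, and its summed level spanned 13.21 to 17.02 under the TFH label and 14.49 to 15.66 under the naive label. All 20 were higher in replicate 2 of both TFH groups. No B cell gene was at the bottom of the scale, and the lowest, Vpreb3, was 3.50 to 7.31 in TFH-labelled libraries. Of the 10 NF-kB genes 7 were also higher in replicate 2 of both TFH groups, where 26.2% of all genes were. Rel was higher by 0.63 and 0.51, Nfkbie by 0.22 and 0.47, and Nfkb2 by 0.18 and 0.48, whereas Tnfaip3 was higher by 0.16 and 0.08. Nfkb1, Relb and Bcl3 were not higher in both. Other cell types showed the same, with 16 of 20 myeloid genes (median 0.83 in WT and 1.04 in KO) and 10 of 14 cytotoxic (CD8 T and NK) genes (0.47 and 0.55) higher in replicate 2 of both TFH groups. None of the 12 TFH or 10 naive T cell genes were. A fit with a covariate was made for the B cell genes alone, and the part of the other cells was not tested.

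With replicate 2 of both TFH groups left out, the difference between labels was 5.11 in WT and 5.33 in KO for Tnfaip3, and 1.01 and 1.31 for Rel. For Nfkb2 it was 0.41 and 0.15, and for Nfkbie 0.10 and -0.21. In a fit that carried the B cell mean as a covariate, Rel differed by 1.39 and 1.61, Nfkb2 by 0.54 and 0.42, and Nfkbie by 0.25 and 0.05. Fewer cells of a type and less RNA per cell cannot be told apart in bulk libraries.

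Myeloid and cytotoxic transcripts were lower in TFH-labelled libraries. The mean of 20 myeloid genes was 7.55 to 9.27 in TFH-labelled and 9.75 to 11.15 in naive-labelled libraries, highest in naive WT replicate 1, with summed levels of 14.06 to 14.73 and 15.07 to 16.31. That of 14 CD8 T and NK cell genes was 7.97 to 9.16 and 9.38 to 9.73, with summed levels of 12.51 to 13.37 and 13.72 to 14.06. The lowest myeloid gene stood at 2.73 in a TFH-labelled library and none was at the bottom of the scale. Both lists were lower where most of the 10 NF-kB genes were higher, and the part of these cells in the differences was not tested.

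**Figure D3:**
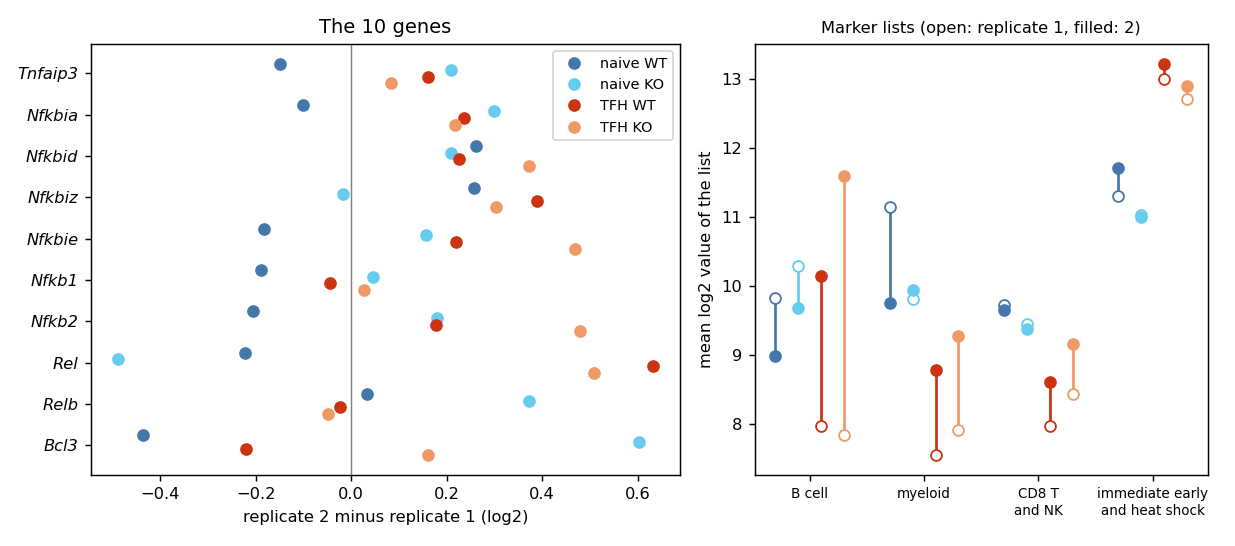
Left, replicate 2 minus replicate 1 (log2) of each NF-kB gene in the 4 groups; right, mean log2 level of 4 marker lists in each library, with open points for replicate 1 and filled points for replicate 2. The B cell mean is 7.98 and 10.15 in the libraries of TFH WT and 7.84 and 11.59 in those of TFH KO, and Rel, Nfkb2 and Nfkbie are also higher in replicate 2 of both.

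KO and WT libraries were compared within each label to ask whether loss of C5ar1 in the donor cells altered these genes. None of the 10 was called in either label. In TFH-labelled libraries limma called 0% of all 14042 genes, with 506 at an unadjusted p below 0.05 and none of the 10 among them. With the compared groups only it called 1 gene and without naive WT replicate 2 it called 2. In naive-labelled libraries it called 10 genes, or 0.0712%, with 355 genes at an unadjusted p below 0.05 and none of the 10 among them. The heat shock genes Hspa1a and Hspa1b were not called there, despite KO minus WT differences of -7.20 ± 1.42 and -6.53 ± 1.38. Under the TFH label Hspa1a was 8.58 and 9.17 in WT and 4.64 and 5.71 in KO. The source of these genotype differences was not tested.

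Genes of the marker lists also tended to share a sign between the TFH groups, though limma called none of them. Genes of a list come from the same 2 libraries per group, so their counts are a description and not replicates. KO minus WT was positive in 18 of 20 B cell genes (median 0.73), 17 of 20 myeloid genes (0.31), 14 of 14 CD8 T and NK cell genes (0.55) and 9 of 10 naive T cell genes (0.17), and in none of 12 TFH genes (-0.46). In the interaction, which shares these libraries, the medians of the lists in that order were 0.15, 0.90, 0.89, 0.33 and -0.61. The 12 housekeeping genes shared a sign as well, with 0 positive in either comparison (medians -0.11 and -0.12). A uniform sign was therefore not particular to lists that mark a cell type or state. Of 12 CD4 T cell genes 4 were positive in each comparison (-0.10 and -0.08). The B cell mean was 7.98 and 10.15 in TFH WT and 7.84 and 11.59 in TFH KO, so only TFH KO replicate 2 lay above the WT libraries. Library means of the myeloid list and of the CD8 T and NK cell list also overlapped between these groups. Those of the naive T cell and TFH lists did not overlap, and neither did those of the housekeeping genes. The part of these markers in the genotype values below was not tested.

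The TFH-labelled differences, KO minus WT, ran from -0.09 to 0.18 over the 10 genes, with a median of 0.01 beside 0.00 over all genes. For Tnfaip3 it was 0.12 ± 0.11, with a 95% interval from -0.12 to 0.37, against a label difference above 5. For Nfkbia it was 0.01 ± 0.13 with an interval from -0.28 to 0.29, and for Nfkbiz 0.07 ± 0.15 with an interval from -0.26 to 0.40. These intervals leave room for changes of up to 0.40 in log2 for the inhibitors named. Rel was the least certain, at 0.18 ± 0.29 with an interval from -0.51 to 0.88. All adjusted p-values of the 10 genes by limma were 1 in this comparison, and the lowest unadjusted p was 0.297.

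Both TFH WT libraries lay above both TFH KO libraries in Nfkb1 and Relb, and no gene of the set showed the opposite. Nfkb1 was 14.32 and 14.28 in TFH WT and 14.22 and 14.25 in TFH KO, a difference of -0.07 ± 0.10 that had an interval from -0.29 to 0.16. Relb was 11.05 and 11.03 in TFH WT and 10.97 and 10.93 in TFH KO, a difference of -0.09 ± 0.13 that had an interval from -0.37 to 0.18. Over all genes 16.5% had both WT libraries above both KO libraries. Centring on housekeeping genes, which shifted the median of all genes by 0.14 in this comparison, gave 0.07 for Nfkb1 and 0.05 for Relb. The housekeeping genes leaned lower in KO here, as given above.

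In naive-labelled libraries the differences ran from -0.20 for Nfkbia to 0.16 for Nfkbie. Nfkbia at -0.20 ± 0.13 had a 95% interval from -0.49 to 0.08, and Nfkbiz at -0.19 ± 0.15 one from -0.52 to 0.14. Both naive WT libraries lay above both naive KO libraries in these genes, as they did in 11.2% of all genes. The lowest unadjusted p by limma was 0.148, that of Nfkbia, and no gene of the set passed after adjustment.

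Relb, Bcl3 and Nfkbid lie on chromosome 7, as does the deleted gene C5ar1 (chr7:16246743-16259540). Relb is 3.35 and Bcl3 3.55 megabases away, and Nfkbid 14.2. Between genotypes Bcl3 differed by 0.01 ± 0.22 under the TFH label and -0.02 ± 0.22 under the naive label, and Relb by 0.01 ± 0.13 under the naive label. Nfkbid differed by 0.13 ± 0.15 and -0.11 ± 0.15. The intervals of all these differences included 0.

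**Figure D4:**
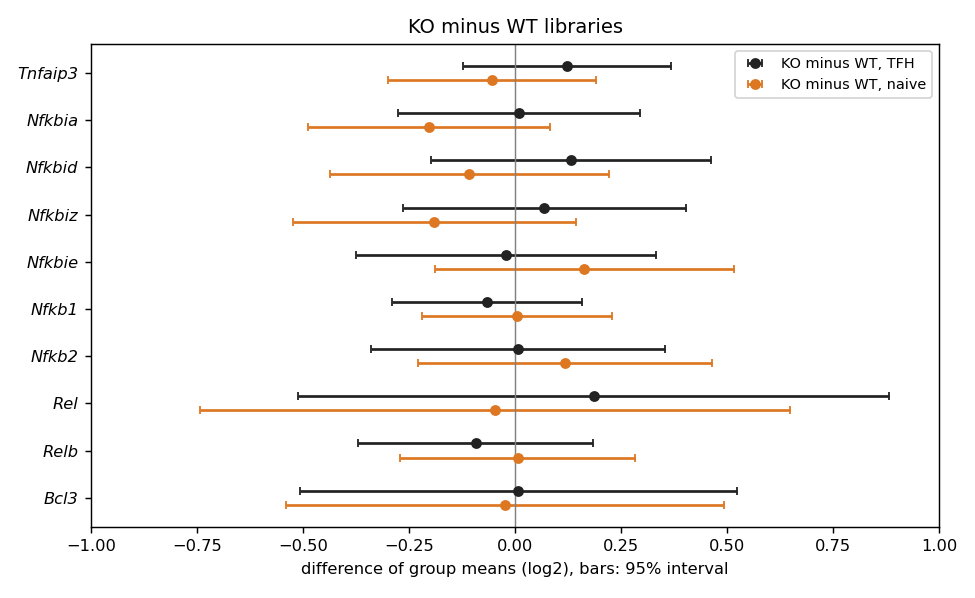
Difference between KO and WT group means (horizontal axis, log2) for each gene in TFH-labelled (black) and naive-labelled (orange) libraries, with 95% intervals. Every interval spans 0, and that of Rel in TFH-labelled libraries is widest to the right, from -0.51 to 0.88.

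The interaction asked whether the difference between labels depended on genotype. Limma called 2 of all genes, or 0.0142%, and none of the 10, with 614 genes at an unadjusted p below 0.05 and none of the 10 among them. In Tnfaip3 the label difference was larger in KO by 0.18 ± 0.16, in Nfkbiz by 0.26 ± 0.21 and in Nfkbia by 0.21 ± 0.18, and the 95% intervals of these values ran from -0.17 to 0.52, -0.21 to 0.73 and -0.19 to 0.62. In Nfkbie it was -0.19 ± 0.23. The lowest adjusted p of the set by limma was 0.997.

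Beyond these 10 genes, 161 other genes of the pathway were measured. Their lists, like the marker lists above, were chosen with earlier results of these data known. Counts of calls between labels are therefore given as a description, and nothing is read from their excess over all genes. In TFH-labelled against naive-labelled WT libraries limma called 43 higher and 23 lower, together 41.0%, while 26.3% of all genes were called, 12.6% higher and 13.7% lower. In KO 33 were higher and 19 lower, together 32.3%, while 19.5% of all genes were called, 9.12% higher and 10.4% lower. With housekeeping genes as the centre, all-gene calls in KO were 2619 higher and 614 lower in place of 1280 and 1464, and pathway calls were 55 higher and 13 lower in KO and 46 higher and 14 lower in WT. The housekeeping genes themselves differed between labels, as given above. Pathway calls in WT numbered 39 without TFH WT replicate 2 and 41 without TFH WT replicate 1, and in KO 32 without TFH KO replicate 2.

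Of 46 target genes, whose promoters or enhancers NF-kB is known to act on, the WT comparison had 19 that rose and 2 that fell, with 25 uncalled; in KO 14 rose and 3 fell. Their median difference was 0.69 in WT and 0.54 in KO. Csrnp1, a nuclear factor, rose by 2.41 ± 0.11 and 2.66 ± 0.11, and the survival kinase gene Pim1 by 2.21 ± 0.12 and 2.22 ± 0.12. Junb, an AP-1 subunit, rose by 2.02 ± 0.12 and 2.06 ± 0.12 (adjusted p by limma 1.06e-06 and 8.01e-07). Zfp36, which encodes an RNA decay factor, rose by 1.47 ± 0.12 in WT. Junb, Zfp36 and Ier2 are also on the list of immediate early genes used here. Among the 43 targets outside that list 16 rose and 2 fell in WT, and 11 rose and 3 fell in KO. Csrnp1 and Pim1 are among these 43. Whether genes among them also respond early to stimulation was not tested.

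Of 26 negative regulators outside the set, 7 rose and 5 fell in WT, and 3 rose and 3 fell in KO. These are 46.2% and 23.1% called, beside 26.3% and 19.5% of all genes. The KO count is thus near the share of all genes. Zc3h12a, encoding the RNA-degrading enzyme Regnase, was 11.28 and 11.24 in naive WT, 10.94 and 11.21 in naive KO, 12.86 and 13.46 in TFH WT, and 13.42 and 13.68 in TFH KO. It rose by 1.90 ± 0.19 and 2.48 ± 0.19. The WT count of 12 calls was 7 or 6 when naive WT replicate 1 or 2 was left out, 4 or 7 when TFH WT replicate 1 or 2 was, and 7 with no trend. With housekeeping centring the KO calls were 9 higher and 2 lower. Tnip2, encoding a partner of A20, rose by 0.89 ± 0.16 in WT. Tollip, encoding an inhibitor of Toll-like receptor signalling, rose by 0.78 ± 0.14 in KO. Tnfaip8l2 fell in both, with differences of -1.56 ± 0.11 and -1.74 ± 0.11. Irak3, an inhibitor of the same receptors best known from myeloid cells, fell with differences of -1.66 ± 0.17 and -1.19 ± 0.17.

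Of 38 adaptors and kinases, 8 rose and 6 fell in WT, and 9 rose and 3 fell in KO, with a median difference of 0.05 and 0.04. With housekeeping centring 9 rose and 1 fell in WT, and 15 rose and 1 fell in KO. Calls higher and lower in WT were 5 and 1 without naive WT replicate 2, and 7 and 2 or 4 and 1 when TFH WT replicate 1 or 2 was left out. In KO they were 6 and 1 without naive KO replicate 1 or with the compared groups only, and 5 and 0 without naive KO replicate 2 or TFH KO replicate 2. Bcl10, the adaptor that links the T cell receptor to the IkB kinase, rose by 0.55 ± 0.11 and 0.64 ± 0.11, and the kinase gene Map3k8 by 1.41 ± 0.19 and 1.09 ± 0.19. The latter call was lost in KO when the second library of each TFH group was left out (1.04, adjusted p = 0.0564 by limma). The adaptor gene Traf4 rose by 0.52 ± 0.10 and 0.56 ± 0.10, and Traf6 by 0.71 ± 0.12 in KO. Chuk, encoding a catalytic subunit of the IkB kinase, rose by 0.54 ± 0.11 in WT. Leaving out replicate 2 of naive WT ended that call (0.44, adjusted p = 0.0537 by limma), as did leaving out replicate 2 of TFH WT (0.44, adjusted p = 0.0587 by limma).

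Of 26 receptors 3 rose and 5 fell in WT, and 1 rose and 4 fell in KO. These are 30.8% and 19.2% called, near the 26.3% and 19.5% of all genes, so the receptor count is not a result about the list. In WT 5 receptors were called when naive WT replicate 1 or either TFH WT library was left out. Il1r1, a receptor for interleukin 1, rose by 2.46 ± 0.24 and 1.66 ± 0.24, while Tnfrsf1a, a receptor for tumour necrosis factor, fell with differences of -0.80 ± 0.10 and -0.57 ± 0.10. Il18r1, a receptor subunit for interleukin 18, fell as well (-0.72 ± 0.14 and -0.70 ± 0.14). Tnfrsf25, a death-domain receptor of T cells, fell by 0.91 ± 0.16 in WT, and its KO difference of -0.67 ± 0.16 lost its call without naive KO replicate 2 (-0.48, adjusted p = 0.0822 by limma) and without TFH KO replicate 2 (-0.49, adjusted p = 0.0971 by limma). Of 12 measured ligands 3 rose and 4 fell in each genotype, or 58.3%. In WT 4 were called without TFH WT replicate 1. In KO 4 were called without naive KO replicate 1 or with no trend, and 3 without naive KO replicate 2 or either TFH KO library. The cytokine gene Tnf rose by 0.87 ± 0.16 and 0.77 ± 0.16. Tnfsf11, which encodes RANKL, rose by 1.10 ± 0.16 in WT, and Tnfsf8, the CD30 ligand gene, rose by 1.16 ± 0.18 in WT and 0.85 ± 0.18 in KO. Ltb, encoding lymphotoxin beta, fell with differences of -0.87 ± 0.13 and -0.67 ± 0.13, and Tnfsf14 fell by 1.05 ± 0.24 in KO. Without TFH KO replicate 2 the KO calls of Tnfsf8 (0.72, adjusted p = 0.0775 by limma) and Tnfsf14 (-0.74, adjusted p = 0.0729 by limma) ended, and that of Tnfsf14 also ended without naive KO replicate 2 (-0.84, adjusted p = 0.0984 by limma). The KO call of Tnf ended without TFH KO replicate 1 (0.72, adjusted p = 0.0501) or when the second library of each TFH group was left out (0.81, adjusted p = 0.0732), and that of Ltb in the latter setting (-0.51, adjusted p = 0.052), all by limma.

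Of 13 other family members and nuclear cofactors, 3 rose and 1 fell in WT, and 3 rose and 2 fell in KO. These are 30.8% and 38.5% called, beside 26.3% and 19.5% of all genes. The WT count is thus near the share of all genes. The WT calls numbered 2 without naive WT replicate 2 and 1 without TFH WT replicate 2, and the KO calls 3 without either naive KO library or with no trend and 2 without TFH KO replicate 2. Nfkbib, encoding the classical inhibitor IkB beta, rose by 0.53 ± 0.12 and 0.47 ± 0.12 (adjusted p by limma 0.00827 and 0.0196). Its WT difference was 0.47 without naive WT replicate 2 (adjusted p = 0.0648 by limma) and 0.46 without TFH WT replicate 2 (adjusted p = 0.0715 by limma), so the call ended. In KO it ended likewise, at 0.35 without naive KO replicate 1 (adjusted p = 0.125 by limma) and 0.35 without TFH KO replicate 2 (adjusted p = 0.159 by limma). Nkrf, encoding an NF-kB repressing factor, rose by 0.67 ± 0.16 and 0.96 ± 0.16, with the WT call lost without TFH WT replicate 2 (0.67, adjusted p = 0.0575 by limma). Nkap fell with differences of -0.55 ± 0.13 and -0.74 ± 0.13, with the WT call lost when replicate 2 of naive WT (-0.47, adjusted p = 0.0812 by limma) or replicate 1 of TFH WT (-0.45, adjusted p = 0.0966 by limma) was left out. Nkiras1 in WT (0.52 ± 0.14) and Pdlim2 in KO (-0.40 ± 0.10) also lost their calls in such settings, and Pdlim2 with housekeeping centring as well (-0.19, adjusted p = 0.213 by limma). Rela, encoding the most widely used activating subunit, was not called, at 0.14 ± 0.11 in WT and 0.22 ± 0.11 in KO. No gene of these lists was called between KO and WT in either label or in the interaction. By unadjusted p the nearest in TFH-labelled libraries were Il1r1, with a KO minus WT difference of -0.77 ± 0.24, and Tnfsf11, with -0.43 ± 0.16. These had an adjusted p of 1 by limma.

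**Figure D5:**
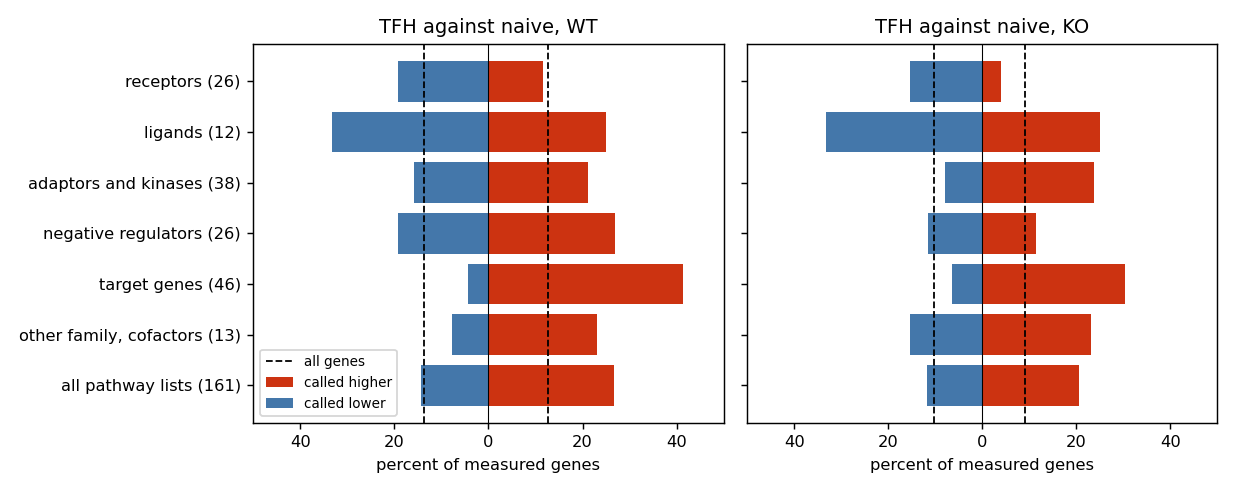
Percent of the measured genes of each pathway list (number in brackets) called higher (red, to the right) or lower (blue, to the left) in TFH-labelled against naive-labelled libraries of WT and KO, with dashed lines at the percent of all genes called in that direction. Target genes have the largest share called higher, 41.3% in WT and 30.4% in KO. The lists were chosen with earlier results of these data known, so the shares are a description.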

How the data were processed

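Per the file headers and values, the authors deposited log2 expression for 14042 gene symbols in each of 8 libraries. BWA and mm10 are named in the submitters' processing notes; the counting tool, annotation, strand use, filters and normalization have no stated source here. Values sorted within a library differed from those of the median library by at most 0.0304, leaving aside the lowest percentile, as quantile normalization would leave them. The 10 genes and all lists were chosen with earlier results of these data known. One limma 3.58.1 model (R 4.3.3) with a mean per group and 4 residual degrees of freedom was fitted to all genes, using trended and robust empirical Bayes, and p-values were adjusted by Benjamini-Hochberg over all genes, with calls below 0.05. No pseudocount was added, since the values were already on a log scale. The procedure was tested on simulated data. Separate animals are not stated for the libraries of a group, so p-values reflect only their spread, possibly a technical one. By rule the 10 genes were named in every library, with up to 4 called genes per list by p, and where no gene of a list was called those with the smallest p, of which a few are printed. Positions come from GENCODE vM21 on GRCm38, the assembly mm10 stands for, and promoters from RefSeq (GRCm38.p6). Alternatives were no trend, no robust option, compared groups only, low genes left out, housekeeping centring, and each library left out in turn. Leaving out replicate 2 of both TFH groups and the B cell covariate were chosen after seeing the data. One sort marker is not reported here.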

Additional observations from a re-analysis of the deposited data

How the results depend on the processing

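No paired analysis was possible because the labels carry no replicate numbers; those used here only name a library. None of the 10 NF-kB genes was called between genotypes or in the interaction under any alternative run. Genes called in TFH against naive libraries, 3694 in WT and 2744 in KO, numbered 1991 to 3726 and 1399 to 2683 with single libraries left out, and 2104 and 1225 without replicate 2 of both TFH groups. Pathway genes called, 66 in WT and 52 in KO, numbered 39 to 68 and 32 to 48 with single libraries left out, and 42 and 30 without replicate 2 of both TFH groups. Between KO and WT, leaving out single libraries gave 0 to 2 genes in TFH-labelled libraries in place of 0, with 1 in the fit of compared groups only, and 7 to 17 in naive-labelled libraries in place of 10. The interaction had 1 to 7 in place of 2, with 0 without the trend and 1 with housekeeping centring. Recomputed values were also followed for 48 pathway gene calls, which were only those with the lowest p in each list and genotype. Some settings left out a library outside the comparison, which does not change its difference. The share kept among these calls therefore does not describe all 66 and 52 pathway calls. Of the 720 values of these 48 calls, 684 kept their call, 36 lost it and 0 reversed. The cause of these changes was not tested, beyond the fewer libraries that some settings leave. Depth is unknown, and 2 libraries per group limit every interval.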
